A study of Mus musculus with 13 samples.

Results

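Dazl, Scml2, Usp26, Tex13, Taf7l, Slc25a31, Tuba3a and Brdt are 8 mouse genes of gametogenesis selected on their measured rise in embryonic stem (ES) cells without Dnmt1, as known from earlier results of these data. They are 8 of the 49671 genes in a joint count table of 4 single libraries. Of the 8, 7 are among the 26797 genes of the 6 replicate files, and all 7 passed the filter on low values that left 17297 genes. Tuba3a is not listed in the replicate files and has values in the single libraries only. The members were chosen by the difference between Dnmt1-null and WT cells in the replicate signal, and Tuba3a, which has no replicate value, was chosen with its single-library counts known. Their differences in these contrasts are given as a description without a test.

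The study compared RNA of WT ES cells, of ES cells without DNMT1, and of WT ES cells given an enzyme that removes the sugar O-GlcNAc from proteins at chosen sites. The WT replicates (n = 3) were the AinV15 line, which carries a doxycycline-responsive transactivator. The Dnmt1-null replicates (n = 3) were the D1-null strain with the C allele, a line in which the maintenance DNA methyltransferase is inactivated. Both were untreated. The labels name different lines for the genotypes, so the effects of genotype and line cannot be told apart. The dCas9-OGA cells (n = 1) were recombinant AinV15 cells selected with G418. They express, after 48 h in 1 µg/mL doxycycline, a bacterial O-GlcNAcase fused to catalytically dead Cas9, together with 4 guide RNAs to the U3 part of the IAP retrotransposon promoter. The dCas9-OGA-D242A cells (n = 1) carry the same construct with an inactivating change in the O-GlcNAcase. The joint table holds these 2 libraries with 1 WT and 1 Dnmt1-null library whose replicate is not named. All cells were grown on gelatin in serum with leukemia inhibitory factor. Nothing in the labels says that replicates came from separate cultures, so p-values measure only the spread between these samples, which may be technical. In these bulk samples, fewer cells of a type and less RNA per cell cannot be told apart.

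In the mouse, DNA methylation at CpG dinucleotides is copied at replication by DNMT1. A group of germ cell genes has CpG-containing promoters that are methylated in somatic lineages, and these genes are transcribed when methylation is erased in primordial germ cells or lost through mutation. Their products serve later steps: translational control, chromatin and transcription in spermatocytes, and the energy supply and cytoskeleton of sperm.

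The promoters are shown because the members carry very different numbers of CpG, the dinucleotide on which DNMT1 acts. RefSeq (GRCm38.p6) promoter windows of 300 bases, from 250 before to 50 after the RefSeq start of each gene, were found for all 8 members. The Scml2 window (chrX:161162500-161162799) lies inside the gene span given below. Its CpG and letter counts therefore describe an internal start and not the first base of that span. Across 32851 such windows the median CpG count was 7, with quartiles of 3 and 20. Dazl had 28 CpG, more than 85.8% of all windows, and Usp26 had 5, more than 38.0% of them. Brdt had 23, Slc25a31 22, Taf7l 17, Scml2 13, Tex13 13 and Tuba3a 12. The 250 bases before the start of Dazl (chr17:50293621-50293870, minus strand) and of Usp26 (chrX:51801234-51801483, minus strand) hold 20 and 5 CpG, set here in capitals, 5′ to 3′.
Dazl: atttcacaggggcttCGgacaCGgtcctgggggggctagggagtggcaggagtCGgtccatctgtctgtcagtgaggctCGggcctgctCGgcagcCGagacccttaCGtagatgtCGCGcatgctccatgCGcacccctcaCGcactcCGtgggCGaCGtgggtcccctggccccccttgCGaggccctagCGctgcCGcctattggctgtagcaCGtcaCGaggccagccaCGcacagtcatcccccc
Usp26: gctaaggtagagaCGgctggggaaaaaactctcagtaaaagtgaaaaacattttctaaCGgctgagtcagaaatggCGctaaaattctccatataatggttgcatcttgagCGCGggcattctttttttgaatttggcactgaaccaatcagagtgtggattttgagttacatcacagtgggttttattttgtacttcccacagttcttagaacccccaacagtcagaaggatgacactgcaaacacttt

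All windows were also searched on both strands for 4 sets of letters known from germ cell promoters or core promoters. The letters CACGTG, the E-box core and its own reverse complement, contain a CpG and were present in 3 of 8 members and in 7.15% of all windows. The 3 were Taf7l (chrX:134476491-134476740, minus strand), Slc25a31 (chr3:40708621-40708870, plus strand) and Brdt (chr5:107330944-107331193, plus strand), whose upstream 250 bases follow with CACGTG in capitals. A match describes letters in a window and no site of binding.
Taf7l: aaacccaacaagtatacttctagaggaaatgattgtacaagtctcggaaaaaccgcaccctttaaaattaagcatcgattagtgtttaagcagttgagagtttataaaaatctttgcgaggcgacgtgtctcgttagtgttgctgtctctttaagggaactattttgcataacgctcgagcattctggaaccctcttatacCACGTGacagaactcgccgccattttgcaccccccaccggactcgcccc
Slc25a31: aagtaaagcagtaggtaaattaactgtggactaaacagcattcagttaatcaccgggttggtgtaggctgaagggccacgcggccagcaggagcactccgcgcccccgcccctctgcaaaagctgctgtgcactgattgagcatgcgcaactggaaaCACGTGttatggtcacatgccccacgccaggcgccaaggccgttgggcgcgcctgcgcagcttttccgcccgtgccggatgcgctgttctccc
Brdt: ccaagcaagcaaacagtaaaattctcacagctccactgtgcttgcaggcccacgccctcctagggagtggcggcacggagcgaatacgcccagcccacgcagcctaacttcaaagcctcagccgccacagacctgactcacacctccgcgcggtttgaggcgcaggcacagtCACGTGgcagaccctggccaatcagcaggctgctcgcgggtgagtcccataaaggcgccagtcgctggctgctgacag

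The letters GCGGGAA, found at E2F sites, were present in either orientation in 2 of 8 members, Slc25a31 and Tuba3a, and in 4.60% of all windows. The letters TATAAA, as in a TATA box, were present in 1, Taf7l (13.6% of all windows). They were counted anywhere in the window, and in Taf7l they lie far from the start. The letters TGACGTCA of a full cAMP response element were present in 0 (1.79%). The upstream 250 bases of Tuba3a (chr6:125286082-125286331, minus strand) are set beside those of its close copy Tuba3b (chr6:145615713-145615962, plus strand), with the E2F letters of the other strand, TTCCCGC, in capitals, since the copies share transcript sequence and Tuba3b alone is listed in the replicate files.
Tuba3a: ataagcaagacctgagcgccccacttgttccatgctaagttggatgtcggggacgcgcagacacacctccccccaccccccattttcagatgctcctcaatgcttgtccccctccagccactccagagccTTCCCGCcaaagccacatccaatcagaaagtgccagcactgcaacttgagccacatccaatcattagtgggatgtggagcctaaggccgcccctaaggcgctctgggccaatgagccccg
Tuba3b: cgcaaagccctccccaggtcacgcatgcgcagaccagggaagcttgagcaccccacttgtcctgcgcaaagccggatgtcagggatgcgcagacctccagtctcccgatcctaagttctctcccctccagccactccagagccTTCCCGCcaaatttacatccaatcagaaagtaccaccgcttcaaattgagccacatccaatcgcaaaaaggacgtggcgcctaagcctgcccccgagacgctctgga

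The replicate libraries held 26846275 to 37112247 reads in WT and 27934568 to 30950554 in Dnmt1-null cells, and the single libraries 18693531 to 25097983 counts. Dnmt1 itself fell from a signal of 336 ± 24.1 (SD, n = 3) in WT to 75.5 ± 2.02 (n = 3) in Dnmt1-null cells, a difference of -2.14 (SE 0.05) on the log2 scale, and each measured ES cell marker had a signal of at least 263 in every replicate library. Of 7 fibroblast markers, 7 fell, as did 35.4% of all tested genes (limma, adjusted p of 0.05). Their summed signal was 1072 to 1540 in WT and 251 to 281 in Dnmt1-null libraries. Of 7 markers of 2-cell-like cells 6 fell (406 to 433 against 166 to 193), and in the single libraries their sum was 27.6 cpm (counts scaled to library size with TMM factors) in WT and 0.363 to 1.37 cpm in the other three. Primordial germ cell markers were mixed, with 3 of 7 higher and 3 lower, near the 35.8% higher and 35.4% lower of all tested genes. The part of these cell type markers in the members' differences was not tested.

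In the replicates, the 7 measured members were higher in every Dnmt1-null library than in every WT library, as were 37.1% of all tested genes. A rise past the test threshold (adjusted p of 0.05, limma) held for 35.8% of tested genes. Of the 7, 6 differed by at least 2-fold, against 3.67% of tested genes. These counts follow from the choice of the genes and nothing is read from them. Values are the deposited signal, reads scaled by the authors to a common depth, which sums to 959084 to 1036637 per library, and differences are on the log2(signal + 0.5) scale, which understates those of low genes.

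**Figure D1:**
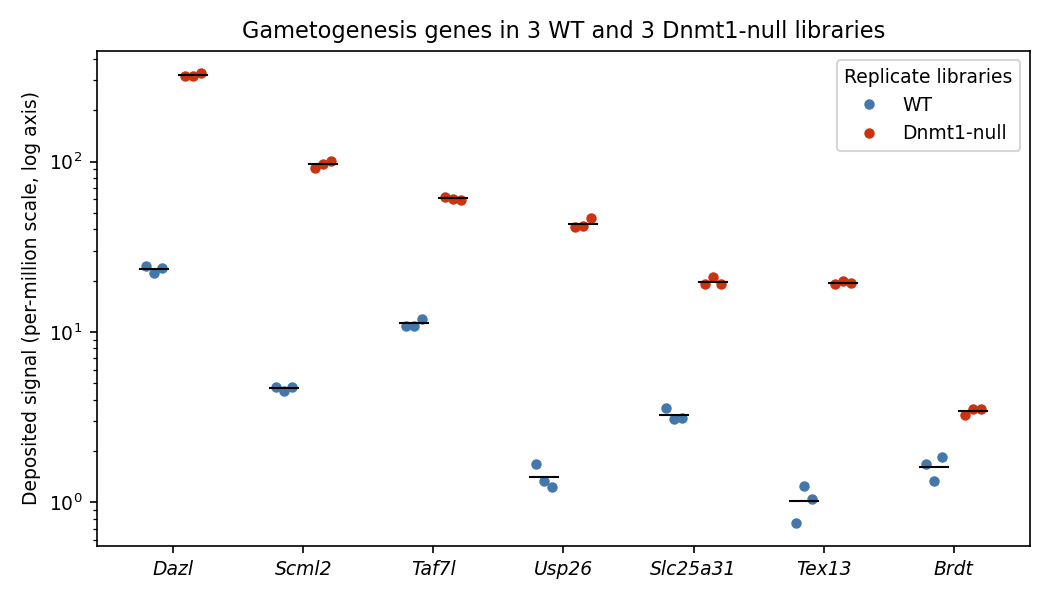
Deposited signal (log axis) of the 7 members listed in the replicate files, in 3 WT (blue) and 3 Dnmt1-null (red) libraries, with the mean of each group as a black line. The groups do not overlap for any gene, and the ratio of the means runs from 2.13-fold for Brdt to 30.8-fold for Usp26.

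Dazl (chr17:50279395-50293636, minus strand; GENCODE vM21, GRCm38, as for the genes below) encodes an RNA-binding protein that controls translation in germ cells. Its signal was 24.5, 22.0 and 23.9 in WT replicates 1, 2 and 3 and 320.5, 316.5 and 330.7 in the Dnmt1-null replicates. The WT libraries were uniformly low and the Dnmt1-null libraries uniformly high. The means were 23.5 ± 1.27 and 323 ± 7.34 (SD, n = 3 each), 13.7-fold apart, and the log2 difference of 3.75 (SE 0.05) was the 4th largest rise of 17297. Per kb of exon, Dazl had the highest level of the 7 members with replicate values in both groups, 6.15 signal units in WT and 84.4 in Dnmt1-null cells. Tuba3a, which has no replicate value, stood above Dazl per kb in the single WT and Dnmt1-null libraries.

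Among the genes of chromatin and transcription, Scml2 (chrX:161117193-161258213, plus strand), a Polycomb-related protein of the male germ line, stood at 4.78, 4.49 and 4.74 in WT and at 91.6, 97.5 and 100.6 in Dnmt1-null replicates. The lowest Dnmt1-null library was 19.2-fold above the highest WT library. The log2 difference was 4.23 (SE 0.07), the 3rd largest. Taf7l (chrX:134460118-134476490, minus strand), a germ cell relative of the TFIID subunit TAF7, was already detected in WT, at 10.9, 10.9 and 11.96, and stood at 62.3, 60.7 and 59.8 in Dnmt1-null replicates. Its log2 difference was 2.39 (SE 0.06), the 44th largest. Brdt (chr5:107331159-107387058, plus strand), the testis member of the BET family that binds acetylated histones, was low in both groups. It stood at 1.67, 1.32 and 1.83 in WT and at 3.24, 3.52 and 3.54 in Dnmt1-null replicates. The groups did not overlap, but the log2 difference of 0.91 (SE 0.13) was only the 848th largest, so the description of a strong rise does not hold for Brdt.

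Usp26 (chrX:51753959-51801233, minus strand), a testis deubiquitinase, showed the largest difference of the members. Its signal was 1.67, 1.32 and 1.22 in WT and 41.2, 41.9 and 46.6 in Dnmt1-null replicates. The WT libraries held 34 to 51 reads each and the Dnmt1-null libraries 1183 to 1275. The log2 difference was 4.53 (SE 0.10), the 2nd largest of all tested genes. Tex13 (chrX:140808307-140813433, minus strand; named Tex13b in the annotation), a testis-expressed gene, was near the limit of detection in WT, at 0.753, 1.25 and 1.04, from 23 to 48 reads. In Dnmt1-null replicates it stood at 19.0, 20.0 and 19.3. The log2 difference was 3.73 (SE 0.12), the 5th largest. Slc25a31 (chr3:40708855-40726096, plus strand), the germ cell ADP/ATP carrier of the mitochondrial inner membrane, stood at 3.57, 3.06 and 3.12 in WT and at 19.2, 20.9 and 19.1 in Dnmt1-null replicates. The log2 difference was 2.43 (SE 0.09), the 39th largest.

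Compared per kb of exon, the mean Dnmt1-null signal ordered the members as Dazl (84.4), Taf7l (27.1), Scml2 (15.9), Usp26 (10.5), Slc25a31 (9.27), Tex13 (6.93) and Brdt (0.671). In WT the order was Dazl (6.15), Taf7l (5.01), Slc25a31 (1.53), Scml2 (0.769), Tex13 (0.362), Usp26 (0.340) and Brdt (0.315). The last 3 of the WT order do not differ beyond their spread. Of the 8 members 4 are on the X chromosome and 4 on autosomes. The X chromosome as a whole did not stand out, with 40.6% of its 567 tested protein-coding genes higher and a median log2 difference of 0.03. Chromosome 11, which holds no member, did, with 64.9% of 1198 such genes higher and a median of 0.38. No 50-base window of the longest transcript was shared with another gene for the 7 members in the replicates.

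The same genotypes were then compared in the single libraries, 1 per group. With 1 library per group there is no test. Counts were scaled to cpm with TMM factors, log2 ratios are of cpm + 0.5, and 95% intervals (exact Clopper-Pearson, from the counts without the 0.5) cover counting error only. Of 8 members, 4 were at least 2-fold higher in the Dnmt1-null than in the WT library (10.5% of 12593 genes with at least 100 counts were) and 0 were at least 2-fold lower (6.89%). The median log2 ratio of the 8 was 0.59, beside -0.07 over the 12593 genes. Tex13 and Brdt do not reach 100 counts, and over the 6 members that do the median was 1.40, with 4 at least 2-fold higher.

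**Figure D2:**
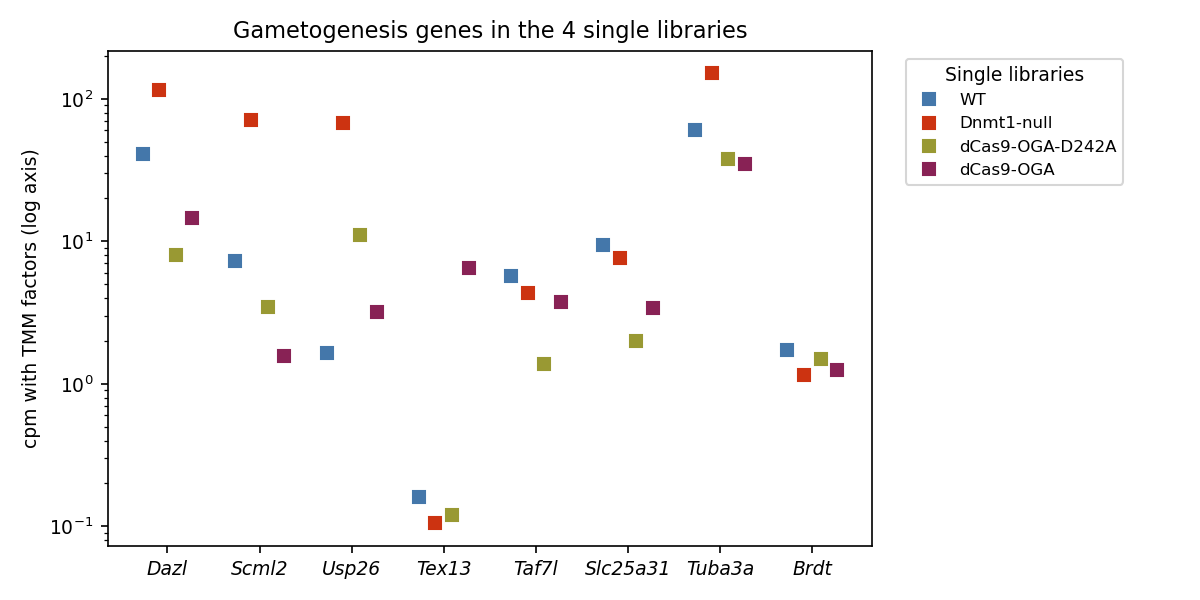
Level (cpm with TMM factors, log axis) of the 8 members in the 4 single libraries, 1 point per library. The Dnmt1-null library is the highest for Dazl, Scml2, Usp26 and Tuba3a only, the WT library for Taf7l, Slc25a31 and Brdt, and the dCas9-OGA library for Tex13.

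The members higher in both data sets were Dazl, Scml2 and Usp26. Usp26 had 41 counts in WT and 1292 in the Dnmt1-null library, a log2 ratio of 4.99 (interval 4.91 to 5.85). Scml2 had 180 and 1341 counts, a log2 ratio of 3.19 (3.05 to 3.51). Dazl had 1014 and 2194 counts, a log2 ratio of 1.49 (1.39 to 1.61), less than the replicate difference of 3.75.

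Tuba3a (chr6:125278274-125286042, minus strand), an alpha-tubulin isotype abundant in testis, could be followed in the single libraries only. It had 1504 counts in WT and 2873 in the Dnmt1-null library, a log2 ratio of 1.31 (1.23 to 1.41). Its counts are uncertain, since 33.6% of the 50-base windows of its transcript also occur in other genes, 32.4% in Tuba3b, and 75 of its exon bases overlap the antisense gene 4930417O13Rik. Tuba3b, which the choice of genes did not include, rose in the replicates from 6.76 ± 0.675 to 53.0 ± 1.47 (SD, n = 3 each), a log2 difference of 2.89 (SE 0.07, limma adjusted p = 2.41e-20), and had 115 and 380 counts in the single WT and Dnmt1-null libraries. Because Tuba3b shares sequence with the chosen Tuba3a, its reads are uncertain too, and its rise may not be separate from that of Tuba3a.

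The remaining 4 members were not higher in the single Dnmt1-null library. Taf7l had 142 counts in WT and 83 in the Dnmt1-null library, a log2 ratio of -0.36 (-0.80 to 0.01). Slc25a31 had 234 and 145 counts, a log2 ratio of -0.29 (-0.62 to -0.003). Both intervals, which are without the added 0.5, lie below the replicate differences of 2.39 and 2.43, which include it. Brdt had 43 and 22 counts, a log2 ratio of -0.43 (-1.40 to 0.19). Tex13 had 4 and 2 counts, and its interval of -4.08 to 2.19 also lies below the replicate difference of 3.73. A difference between the 2 data sets was not tested, since each genotype has 1 single library.

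**Figure D3:**
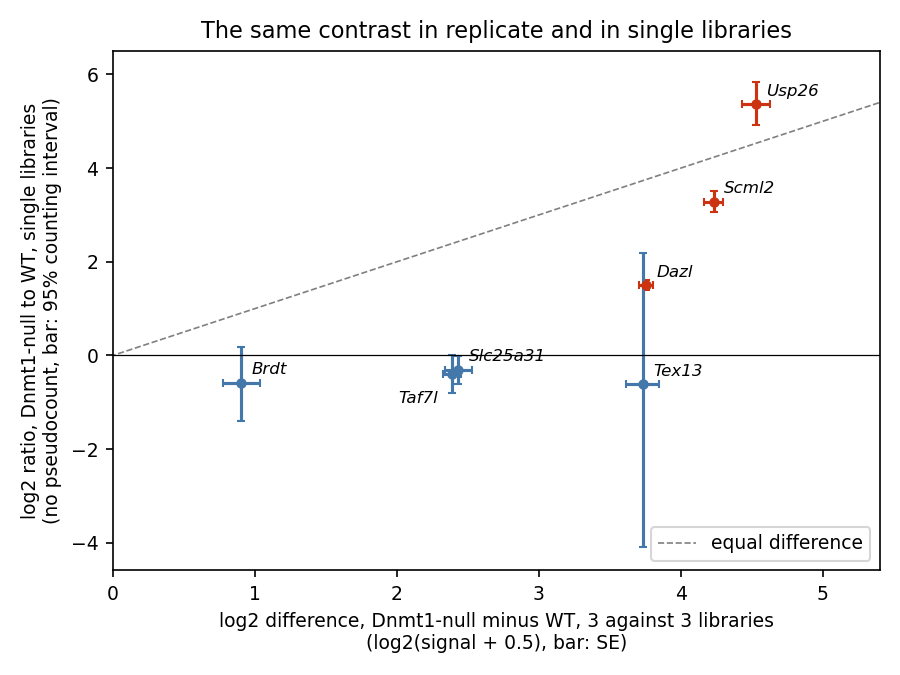
Log2 difference between Dnmt1-null and WT cells in the replicates (x, log2(signal + 0.5), bars are SE, n = 3 each) against the log2 ratio in the single libraries (y, without the 0.5, bars are 95% counting intervals) for 7 members. Dazl, Scml2 and Usp26 (red) lie above 0 on both axes, and Tex13, Taf7l, Slc25a31 and Brdt (blue) lie above 0 only in the replicates.

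Levels within one genotype also differed between the data sets. Since the tables were made and scaled separately, these values, in plain cpm, are set side by side without a test. In Dnmt1-null cells the single library lay outside the range of the 3 replicates for all 7 members, below it for 6 and above it for Usp26 (69.1 against 39.7 to 45.3). Taf7l stood at 4.44 cpm in the single library (interval 3.54 to 5.50) and at 58.1 to 60.1 in the replicates, and Tex13 at 0.107 (0.013 to 0.387) and 18.3 to 19.6. Dazl stood at 117 against 309 to 321.

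In WT cells the single library lay above the replicates for 3 members, below for 2 and inside their range for 2. Dazl stood at 40.4 cpm against 22.9 to 25.5, and Slc25a31 at 9.32 against 3.18 to 3.72. Scml2 was above at 7.17 against 4.66 to 4.99. Taf7l stood below at 5.66 against 11.3 to 12.4, and Tex13 at 0.159 against 0.785 to 1.29. Among the 4 single libraries, the WT library was also the one in which each of the 7 markers of 2-cell-like cells was highest. Their sum there was 27.6 cpm, beside a summed signal of 406 to 433 in the WT replicates. The part of these markers in the ratios to the single WT library was not tested.

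With the dCas9-OGA-D242A library as the reference in place of the WT library, a comparison added after the values were seen, the single Dnmt1-null library was at least 2-fold higher for 6 of 8 members (3.85% of 12590 genes) and lower for 0 (6.24%). Taf7l and Slc25a31 then lay above 0, with log2 ratios of 1.38 (1.08 to 2.30) and 1.69 (1.45 to 2.42). Dazl reached 3.78 and Scml2 4.17, Usp26 was lower at 2.56 and Tuba3a stood at 1.98. Tex13, with 3 counts in the D242A library, and Brdt, with 37, stayed at -0.04 and -0.26. This comparison shares its Dnmt1-null library with the one above, and the D242A cells carry a construct and were treated with doxycycline.

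The active enzyme was compared with its dead form to ask what removal of O-GlcNAc near the guides' targets did to these genes, none of which was named as a target. Of 8 members, 2 were at least 2-fold higher in the dCas9-OGA library than in the dCas9-OGA-D242A library (4.88% of 12722 genes) and 1 was at least 2-fold lower (7.22%). The members thus did not move in one direction.

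Tex13 had 3 counts in the D242A library and 160 in the dCas9-OGA library, a log2 ratio of 3.48 with the added 0.5 cpm, and 53.4-fold without it (log2 interval 4.17 to 8.03). It had 4 and 2 counts in the single WT and Dnmt1-null libraries, so dCas9-OGA was the only one of the 4 with more than a few. Taf7l had 34 and 93 counts, a log2 ratio of 1.18 (0.87 to 2.07). Dazl had 198 and 364 counts, 0.84 (0.63 to 1.14), and Slc25a31 had 50 and 84, 0.63 (0.23 to 1.29).

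The opposite direction held for Usp26 and Scml2, which had the largest ratios of the single Dnmt1-null to the single WT library. Usp26 had 277 counts in the D242A library and 79 in the dCas9-OGA library, a log2 ratio of -1.66 (-2.19 to -1.44). Scml2 had 86 and 39, a log2 ratio of -0.94 (-1.72 to -0.58). Tuba3a, with 944 and 866 counts, stood at -0.12 (-0.26 to 0.01), and Brdt, with 37 and 31, at -0.19 (-0.99 to 0.47). The intervals of these last 2 include 0.

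**Figure D4:**
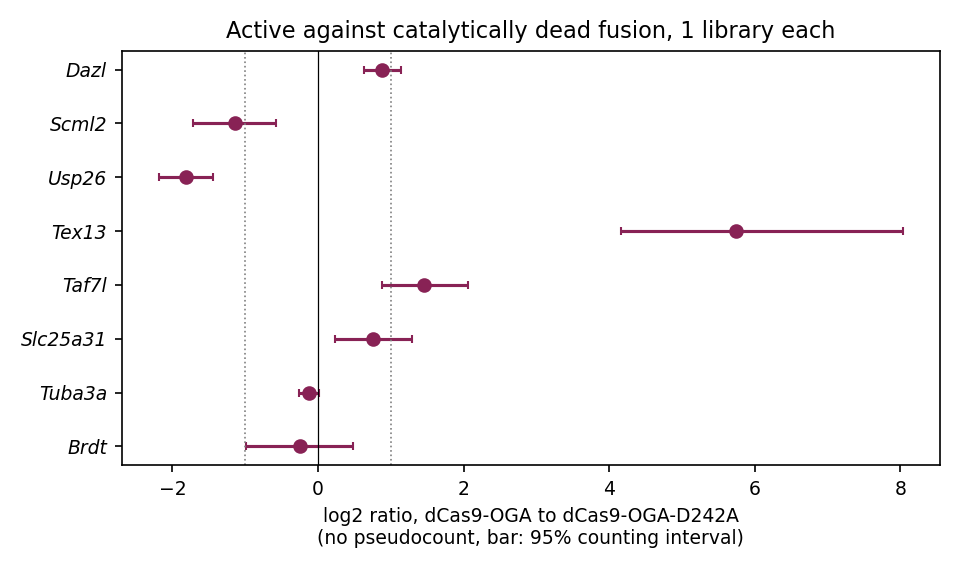
Log2 ratio of the dCas9-OGA to the dCas9-OGA-D242A library (without the 0.5, bars are 95% counting intervals, 1 library each) for the 8 members, with dotted lines at 2-fold. Tex13 and Taf7l lie to the right of 2-fold and Usp26 and Scml2 to the left, where Scml2 is within 2-fold once 0.5 cpm is added.

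The D242A library, which shares the line and the construct, also differed from the single WT library. Of 8 members, 1 was at least 2-fold higher (12.5% of 12933 genes) and 3 were at least 2-fold lower (8.28%). Usp26 was higher, with a log2 ratio of 2.43 (2.28 to 3.26). Dazl was lower at -2.29 (-2.59 to -2.14), Slc25a31 at -1.98 (-2.70 to -1.78) and Taf7l at -1.74 (-2.65 to -1.52). Scml2 stood at -0.97 (-1.46 to -0.69), just within 2-fold, and without the added 0.5 cpm it was 2.099-fold lower, so that with a pseudocount of 0.1 cpm 4 members were at least 2-fold lower. These comparisons share libraries.

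The relatives of the members by protein family were tested in the same fit over all genes (limma, Benjamini-Hochberg adjustment). Besides Tuba3b, Usp29 was the only one of those tested and named here to differ by at least 2-fold, and it fell. Boll, of the DAZ family of RNA-binding proteins, rose by 0.43 on the log2 scale (SE 0.12, adjusted p = 0.0034). The MBT-domain gene Sfmbt1 rose by 0.33 (adjusted p = 8.24e-05) and Sfmbt2 by 0.17 (adjusted p = 0.016), and Scmh1 fell by 0.16 (adjusted p = 0.047). Of the deubiquitinases nearest to Usp26, Usp37 rose by 0.41 (adjusted p = 3.92e-07) and Usp29, at low levels, fell by 1.09 (adjusted p = 2.58e-07). In the single libraries Usp29 had 11 counts in WT and 31 in Dnmt1-null, a log2 ratio of 1.17 in the other direction.

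The widely expressed BET genes Brd2 and Brd3 rose by 0.29 and 0.32 (adjusted p = 1.41e-05 and 5.42e-06). The other ADP/ATP carriers moved apart, Slc25a4 by 0.18 (adjusted p = 0.0016) and Slc25a5 by -0.19 (adjusted p = 0.0021). Among the other alpha-tubulins, Tuba1a fell by 0.46 (adjusted p = 1.70e-08), Tuba1c rose by 0.14 (adjusted p = 0.025) and Tuba4a by 0.24 (adjusted p = 9.61e-05). Tuba1b stood at 0.06 and Tuba8 at 0.31 (adjusted p = 0.34 and 0.073). Tex13c2 stood at -0.25 (adjusted p = 0.12). Taf7 had values in the single libraries only, 2967 counts in WT and 3740 in Dnmt1-null.

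Other gene groups of germ cell function were read from lists that hold none of the members. Over all tested genes 35.8% rose and 35.4% fell, with a median log2 difference of 0.01. The filter on low values passes a gene that is high in 1 group only, so counts over tested genes favour genes that differ and are given as a description. Of the 18 X-linked genes listed 10 passed it, of 20 meiotic genes 16, of 16 RNA-binding protein genes 14, of 10 isoenzymes 7 and of 14 TFIID genes 11. Of 10 tested X-linked germ cell genes, 8 rose and 0 fell, with a median of 1.07. Pramel3, with a WT signal of only 0.245, passed the filter through the Dnmt1-null libraries alone, and its log2 difference of 2.96 is given as a description. Tktl1, a transketolase relative, rose by 1.82 and Tex11, a meiosis gene, by 1.80 (adjusted p = 3.33e-11 and 1.59e-13). Of 16 tested meiotic chromosome genes, 11 rose and 1 fell, with a median of 0.64. Sycp1, of the synaptonemal complex, rose by 2.60, and the cohesin genes Smc1b and Stag3 by 2.12 and 1.76 (adjusted p = 1.36e-19, 2.23e-17 and 1.90e-17), whereas Syce1 fell by 0.44 (adjusted p = 4.38e-07).

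Of 14 tested germ cell RNA-binding proteins, the group nearest to Dazl, 9 rose and 2 fell, with a median of 0.58. Piwil2, which binds piRNAs, rose by 2.00, Mael by 1.15 and Tdrd9 by 1.12 (adjusted p = 3.89e-19, 1.13e-12 and 4.13e-09). Nanos3 fell by 0.45 and Rbmxl2 by 0.35 (adjusted p = 0.0041 and 2.72e-06). Each of these rises was smaller than that of Dazl.

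Of 7 tested testis isoenzymes of energy metabolism, the group nearest to Slc25a31, 5 rose and 1 fell, with a median of 0.64. Ldhc, the testis lactate dehydrogenase, rose by 2.48, Cyct, the testis cytochrome c, by 0.87 and Pgam2 by 0.64 (adjusted p = 6.65e-14, 2.43e-08 and 1.36e-05). Pdha2 fell by 0.42 (adjusted p = 0.0017). Of 11 tested TFIID subunits and TBP relatives, the group nearest to Taf7l, 6 rose and 1 fell, with a median of 0.20. Taf4b, a germ cell subunit, rose by 0.69, Taf9b by 0.42 and Taf1 by 0.33 (adjusted p = 5.68e-10, 0.0016 and 3.82e-06), and Taf6 fell by 0.13 (adjusted p = 0.030).

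Of 18 listed genes of late spermatids, 14 are in the replicate files and only 5 passed the filter, of which 0 rose and 2 fell, with a median of -0.08. Zpbp fell by 0.71 and Tekt2 by 0.58 (adjusted p = 0.000115 and 0.0012). The protamine gene Prm1 had a mean signal of 0.017 in WT and 0.012 in Dnmt1-null cells and 0 counts in each single library, an upper limit of 3 counts per library.

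The single libraries, 1 per genotype and without a test, gave the named genes of these lists differing ratios of Dnmt1-null to WT. Of the genes that rose in the replicates, Smc1b had a log2 ratio of 4.73 (19 and 628 counts), Ldhc 2.27 (12 and 81), Sycp1 1.98 (40 and 149) and Stag3 1.18 (958 and 1672). Tktl1 and Tex11 stood at 1.75 and 1.18, Taf9b and Taf1 at 2.60 and 1.95, and Taf4b, Cyct and Pgam2 at 0.76, 0.77 and 0.69. The WT library was low for Taf1 and Smc1b against the D242A library too, with log2 ratios of D242A to WT of 1.83 and 3.11. Pramel3 had 1 and 18 counts, a log2 ratio of 1.42.

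Of the 9 RNA-binding protein genes that rose in the replicates, 6 had ratios above 0, from 0.03 for Ddx4 to 1.24 for Elavl2, and 3 were below 0. Piwil2 had 1241 counts in WT and 819 in Dnmt1-null, a log2 ratio of -0.21, Mael 714 and 394, a ratio of -0.47, and Tdrd9 27 and 8, a ratio of -0.79. Of the genes that fell in the replicates, Rbmxl2, Taf6, Tekt2 and Zpbp had ratios of -0.59, -0.37, -0.56 and -0.08, whereas Pdha2 (7 and 49 counts), Nanos3 and Syce1 stood at 1.98, 0.34 and 0.20. Of genes with at least 100 counts, 6 of 12 meiotic genes, 2 of 11 RNA-binding protein genes, 2 of 11 TFIID genes, 0 of 5 testis isoenzymes, 1 of 2 X-linked genes and 1 of 2 spermatid genes were at least 2-fold higher, beside 10.5% of all such genes. At least 2-fold lower were 0 in these lists, beside 6.89%.

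**Figure D5:**
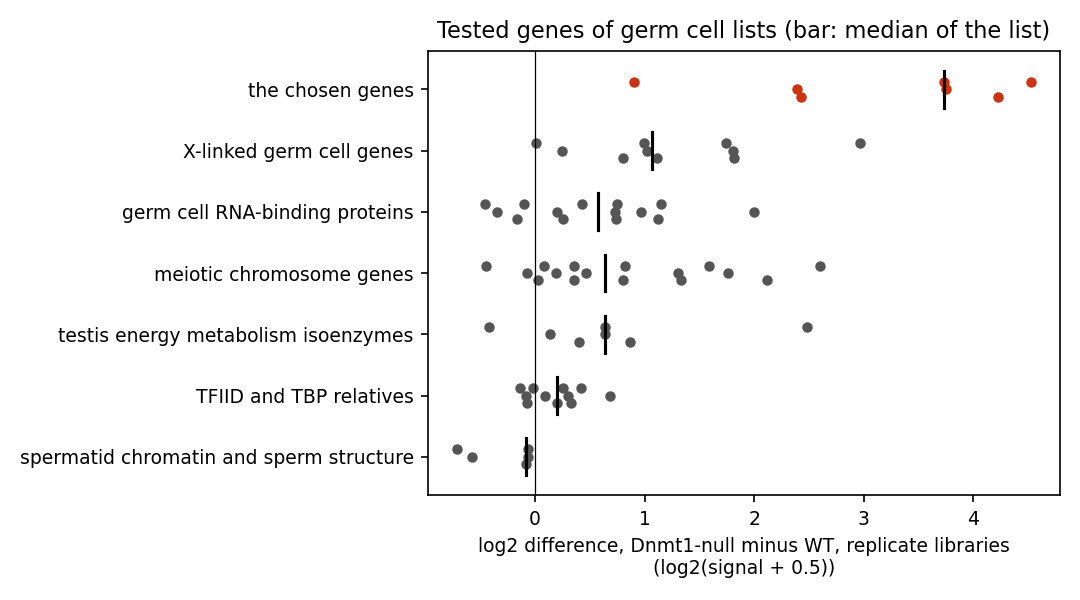
Log2 difference between Dnmt1-null and WT replicates (log2(signal + 0.5), n = 3 each) for the 7 chosen genes (red) and for the tested genes of 6 other germ cell lists (grey), 1 point per gene, with the median of each list as a bar. The medians run from -0.08 for spermatid genes to 1.07 for X-linked germ cell genes, and the chosen genes, picked for this difference, have a median of 3.73.

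In the replicates, the 17 listed genes known to repress germ cell promoters in ES cells differed by no more than 0.56 on the log2 scale, up or down. Of 17 subunits of the PRC1.6 complex and H3K9 methyltransferases, 10 rose, 3 fell and 4 were not called, with a median of 0.24. Of all tested genes 35.8% rose and 35.4% fell. Ehmt1 rose by 0.56, Tfdp1 by 0.52 and Setdb1 by 0.41 (adjusted p = 7.29e-10, 6.57e-10 and 3.70e-08), and Hdac1 fell by 0.35 and Hdac2 by 0.18 (adjusted p = 4.08e-07 and 0.0035). Mga and E2f6, the DNA-binding subunits of the E-box and E2F letters searched in the promoters, stood at 0.00 and -0.05 (adjusted p = 0.97 and 0.48). Of the other 4 genes of the DNA methylation machinery, 4 rose, with Dnmt3l at 1.61, Dnmt3b at 1.11 and Uhrf1 at 0.37 (adjusted p = 8.41e-19, 1.09e-15 and 9.19e-07). In the single libraries the ratios of these 3 were below 0, at -0.31, -0.14 and -0.53, as were those of Ehmt1 (-0.31), Tfdp1 (-0.09) and Setdb1 (-0.33). Mga, in contrast, had 949 counts in WT and 4640 in Dnmt1-null, a log2 ratio of 2.66. Its ratio of the D242A to the WT library was 2.62, so the WT library was low for Mga against both. It was the 1 gene of the 17 past 2-fold.

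The likeness of other genes to the members was measured as the root mean square difference of log2(cpm + 0.5) over the 10 libraries, each table centred on its own mean, among 15470 genes. The measure is a description. It rests largely on the contrast that chose the members, and the libraries of a table share their processing. Nearest to the mean of the 7 members with both data sets were Pramel3 (0.17), Asz1 (0.25), Sh3rf2 (0.29), Fam25c (0.34) and 1700018B24Rik (0.34). Nearest to Dazl were Tuba3b (0.43), Gm9 (0.46), 1700018B24Rik (0.50), Gm15262 (0.54) and Fgfbp1 (0.65).

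Among the members themselves the closest pair was Taf7l and Slc25a31, 0.23 apart, and the most distant was Scml2 and Tex13, 1.96 apart. Dazl was 0.60 from Scml2 and 1.54 from Tex13.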

How the data were processed

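RNA-seq libraries were made from 8 of the 13 samples, and the 5 ChIP-seq samples were not used here. For the replicates the authors deposited 1 file per library with a normalized signal per gene, and for the single libraries raw counts per gene. The files of the active and the dead fusion hold the same counts as the joint table. The study's methods give HISAT2 2.1.0 and featureCounts 1.5.0 with Ensembl genes on mm10, and the submitters' processing notes also list TopHat2 2.0.11, with no role stated for either table. Column headings of the replicate files do not match their samples in several cases, so each file was read by position and assigned by its own label. Those of the joint table that name WT and Dnmt1-null give no replicate. The labels name an RNA kit that does not mark strand and the study's methods one that does, and the strand setting of the counting is not given in the sources used here.

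Replicate signals were whole multiples of 1 read for 100% of values (tolerance 0.01), so reads were recovered for the filter, the depths and the count-based alternatives. Genes passing edgeR's filterByExpr were fitted with limma (3.58.1) on log2(signal + 0.5) with a mean trend, and p-values were adjusted by Benjamini-Hochberg over all 17297 genes. Replicates of a group differed beyond sampling noise. On simulated data for this contrast, with 200 of 17297 genes changed 2-fold, limma recovered 199 with 8 false calls, edgeR (4.0.16) 199 with 13 and DESeq2 (1.42.0) 198 with 4. The changed genes were drawn only from genes above a floor of WT reads, which Usp26 and Tex13 do not reach. Far fewer genes changed than were called in the data. These figures therefore do not carry over to low genes or to the share of calls seen here. Single libraries were scaled with TMM factors and received no test.

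The members and lists were chosen with earlier results of these data known. Genes named are all members, their relatives, and up to 3 rises and 2 falls per list. 1 relative, Tex13b, is the member Tex13 under another name. Another relative is not reported here. RefSeq protein sequences were not used here. Alternatives were other tools, scalings, pseudocounts and filters, a replicate block, each replicate left out, and another reference library.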

Additional observations from a re-analysis of the deposited data

Results flagged for a closer look

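In 4 members, all 3 Dnmt1-null replicates lay above all 3 WT replicates while the single Dnmt1-null library lay below the single WT library. The log2 ratio of the single libraries was -0.13 for Tex13, -0.36 for Taf7l, -0.29 for Slc25a31 and -0.43 for Brdt, beside replicate differences of 3.73, 2.39, 2.43 and 0.91. The difference between the data sets was not tested, since there is 1 single library per genotype. Tex13 rests on 4 and 2 counts, and the upper bounds of the counting intervals for Tex13, Brdt and Taf7l, 2.19, 0.19 and 0.01, are above 0, while that for Slc25a31 is -0.003. For Taf7l and Slc25a31 the sign depended on the reference: against the dCas9-OGA-D242A library, chosen after seeing the data, the ratios were 1.38 and 1.69.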

How the results depend on the processing

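Over all genes the replicate comparison gave 6196 rises and 6128 falls with limma, 6026 and 6226 with edgeR, and 5665 and 5739 with DESeq2. Leaving out each replicate in turn gave 5851 to 6112 rises and 5765 to 6016 falls, and 6 members at least 2-fold higher each time. With edgeR, DESeq2 or a pseudocount of 0.1, Brdt passed 2-fold and the count of members was 7. Deviations of same-numbered replicates were weakly correlated (0.07, -0.02 and 0.07), beside -0.08 to 0.01 for differently numbered ones. Such weak values do not settle whether the numbers pair the samples. A replicate block gave 6344 rises, 6212 falls and 6 members. With a pseudocount of 0.1 cpm, 2 members in place of 1 were at least 2-fold lower in the dCas9-OGA than in the D242A library, since Scml2 reached -1.09, and 4 in place of 3 were lower in the D242A than in the WT library. No planned setting turned the sign of a member's difference. In the single WT and Dnmt1-null libraries, Tex13 and Brdt had under 100 counts in sum and the widest counting intervals, and the 6 other members had more.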

Other observations

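The nearest tested genes on either side of each member, chosen after the members' values were seen, were mixed in the replicates (limma, adjusted over all genes). Gm15262, 29.2 kb beyond Scml2, rose from a mean signal of 0.419 to 9.48, by 3.45 on the log2 scale (SE 0.13, adjusted p = 6.44e-17), and had 57 counts in the single Dnmt1-null library and 0 in each of the other three, where up to 3 counts per library are allowed. 1700080O16Rik, beyond Usp26, went from a mean signal of 0.021 to 1.20, a log2 difference of 1.70. It passed the filter on low values through the Dnmt1-null libraries alone, so this difference is given as a description. Hs6st2, on the other side of Usp26, fell by 2.26 (adjusted p = 7.17e-16). Intu and Drp2, within 4.08 and 3.54 kb of Slc25a31 and Taf7l, rose by 0.76 and 0.60 (adjusted p = 2.94e-09 and 0.00059). Mid2 beside Tex13 and Tgfbr3 beside Brdt fell by 0.96 and 0.95 (adjusted p = 3.34e-06 and 2.16e-08). Beside Dazl, Rftn1 and Plcl2 both stood at -0.16 (adjusted p = 0.076 and 0.15).

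Of the primordial germ cell markers, Dppa3 rose by 3.10, Dnd1 by 0.75 and Tfap2c by 0.47, while Prdm1 fell by 0.84 and Prdm14 by 0.67 (adjusted p = 2.93e-17, 5.62e-10, 8.62e-08, 1.13e-08 and 4.03e-10). In the single libraries Dppa3, Dnd1, Prdm1 and Prdm14 had log2 ratios of 2.84, 0.45, 2.03 and 0.36 and Tfap2c -1.21, so Prdm1, Prdm14 and Tfap2c went the other way there. Of 5 tested somatic gonad markers, Cyp11a1 rose by 1.56 and Sox9 and Star fell by 1.47 and 0.27 (adjusted p = 8.23e-12, 1.22e-11 and 0.0020). Primitive endoderm markers rose for 5 of 6, beside 35.8% of all tested genes, with Foxa2 at 1.18, Sox17 at 1.03 and Dab2 at 0.86 (adjusted p = 2.75e-09, 7.76e-10 and 6.87e-13). In the single libraries the sum of the 6 was 46.8 cpm in WT and 15.3 cpm in the Dnmt1-null library.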
